A study of Mus musculus with 28 samples.

Results

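The step from endothelium to blood was compared between 2 embryonic days in 12 of the 28 RNA sequencing libraries of the series. At E10.5 the step was taken as the difference between pre-HSC I and hemogenic endothelium (HE), and at E9.5 as the difference between pro-HSC/HPC and HE, with 3 libraries in each of the 4 populations. The members were chosen by population label alone, and the quantity reported across all genes is the difference of these differences: the E10.5 step minus the E9.5 step, on the log2 scale. HPC stands for hematopoietic progenitor cell and HSC for hematopoietic stem cell. Every library held 100 sorted cells of mouse embryos with the genotype 23GFP transgenic, a transgene whose elements the labels do not describe. The tissue label reads PAS+VU for the younger embryos and AGM+VU for the older, which the labels do not spell out, and the series places these cells in the dorsal aorta. Day, tissue and the label of the blood population change together, so their parts in a difference between the 2 steps cannot be told apart. The sort gates were not given in the sources used here, and the series states that replicates are biological without tying them to litters. P-values therefore measure the spread between these libraries, part of which may be technical.

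In the embryo, blood stem and progenitor cells arise from a subset of endothelial cells in the wall of large arteries. These hemogenic cells turn on the transcription factor Runx1 and, under it, factors such as Gfi1 and Gfi1b that silence endothelial genes. The cells then round up, leave the vessel wall and take on blood surface proteins. Cells that have begun the change still carry endothelial proteins such as the cadherin Cdh5, and pre-HSC are cells that mature into stem cells only later.

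Totals ran from 17628650 to 28143388 counts per library, and 14474 to 16050 genes had at least 1 count. Levels are given in CPM, the counts of a gene divided by the normalised library size. The endothelial cadherin Cdh5 was between 262 and 997 CPM in all 12 libraries, and Runx1 was between 172 and 274 CPM in the blood populations and between 30.8 and 52.3 CPM in HE. In pools of 100 cells, fewer cells of a type and less RNA per cell cannot be told apart. 3 libraries stood apart by their embryonic hemoglobin. The share of hemoglobin genes among all counts was 1.11% in pro-HSC/HPC replicate 2, 0.422% in its replicate 3 and 0.172% in pre-HSC I replicate 3. It was 0.000362% to 0.00245% in the other 9 libraries. Only pro-HSC/HPC replicate 1 of its group was low in hemoglobin, at 0.00073%. A second list, of 15 mesenchyme and smooth muscle markers, had a mean log2(CPM + 1) of 4.15 in E10.5 HE replicate 1 and 3.36 in pre-HSC I replicate 1, against 1.65 to 2.45 in the other 10 libraries. The main counts of genes are also given without these libraries.

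**Figure D1:**
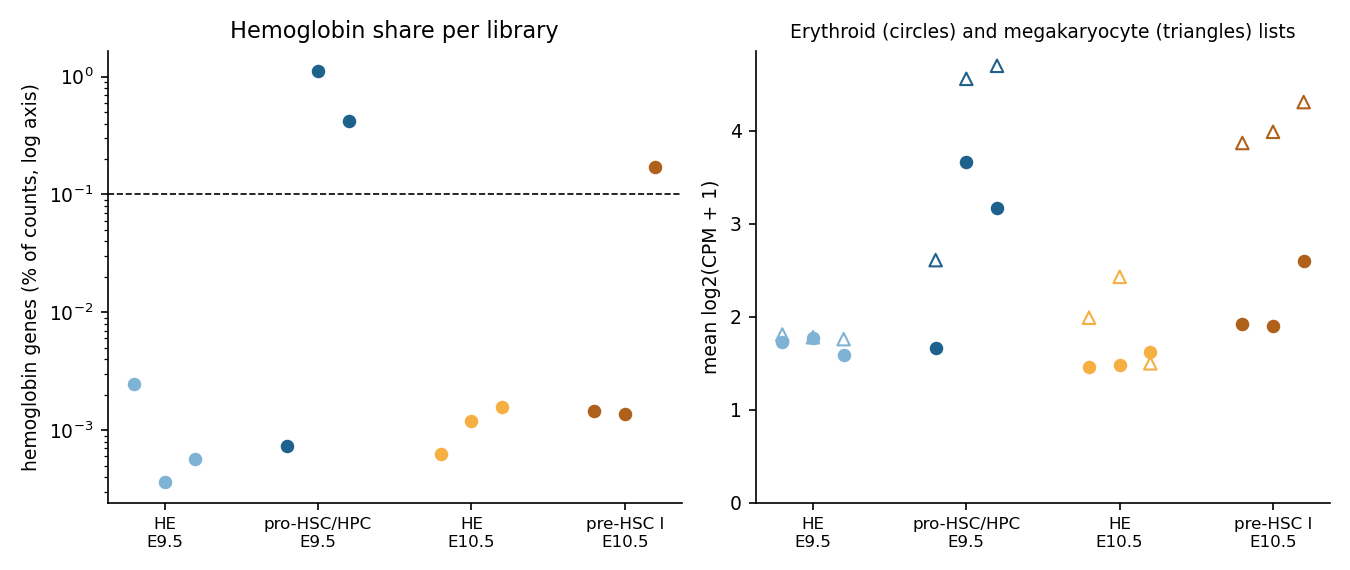
Left, percent of counts in hemoglobin genes per library (log axis), with the dashed line at 0.1%, the share above which a library was counted as rich in hemoglobin. Right, mean log2(CPM + 1) of the erythroid list (circles) and of the megakaryocyte and platelet list (triangles) per library. Points are the 3 libraries of each population, in the order of their numbers. Pro-HSC/HPC replicates 2 and 3 and pre-HSC I replicate 3 lie above the line, and the same 3 libraries are the highest in erythroid genes, at 3.66, 3.17 and 2.60.

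More genes were called in the E10.5 step than in the E9.5 step, and the number called as different between the steps depended on the fit. Of 15238 genes tested with edgeR's quasi-likelihood test, 1049 (6.88%) were called at an adjusted p under 0.05 in the E10.5 step, 470 (3.08%) higher and 579 (3.8%) lower in pre-HSC I than in HE. In the E9.5 step 100 genes (0.656%) were called, 77 (0.505%) higher and 23 (0.151%) lower in pro-HSC/HPC than in HE. In the difference of differences 11 genes were called (0.0722%), of which 5 (0.0328%) had a more positive and 6 (0.0394%) a more negative step at E10.5. At an unadjusted p under 0.05 the difference of differences held 1544 genes, 710 more positive and 834 more negative. DESeq2 called 175 genes in it and limma voom 511. With DESeq2 size factors and with upper-quartile factors, 5 and 3 genes were called in place of 5 and 6. Replicates of the same number within a day deviated together, and with the replicate number within day as a block in the model 527 genes (3.46%) were called, 233 (1.53%) more positive and 294 (1.93%) more negative. All 11 genes were among them. The same block gave 2327 genes (15.3%) in the E10.5 step, 1104 (7.25%) higher and 1223 (8.03%) lower, and 218 (1.43%) in the E9.5 step, 132 (0.866%) higher and 86 (0.564%) lower. Without the 3 libraries rich in hemoglobin, 2 genes (0.012%) were called in the difference of differences, 656 (3.95%) in the E10.5 step and 20 (0.12%) in the E9.5 step. This leaves 1 pro-HSC/HPC library, whose spread is taken from the other populations. The 2 genes were Samsn1, also among the 11, and Car2. With the block and without those libraries the difference of differences held 18 genes, and without replicate 1 of both E10.5 populations it held 82.

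The genes called in both steps moved the same way. There were 67 of them, 53 higher and 14 lower in the blood population, and none was called in opposite directions. They made up 67% of the E9.5 calls and 6.39% of the E10.5 calls. The 2 steps share no library, only the estimate of spread. Of the 470 genes called higher at E10.5, 352 had a positive value at E9.5, and of the 579 called lower, 480 had a negative one. Across all 15238 genes tested the Pearson r between the 2 log2 steps was 0.253 and the Spearman rho 0.231. Across the 8329 genes whose mean reached 10 CPM the Pearson r was 0.508. These values are descriptions, because genes within a library do not vary independently. The median absolute log2 step of the 8329 genes was 0.388 at E10.5 and 0.184 at E9.5.

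**Figure D2:**
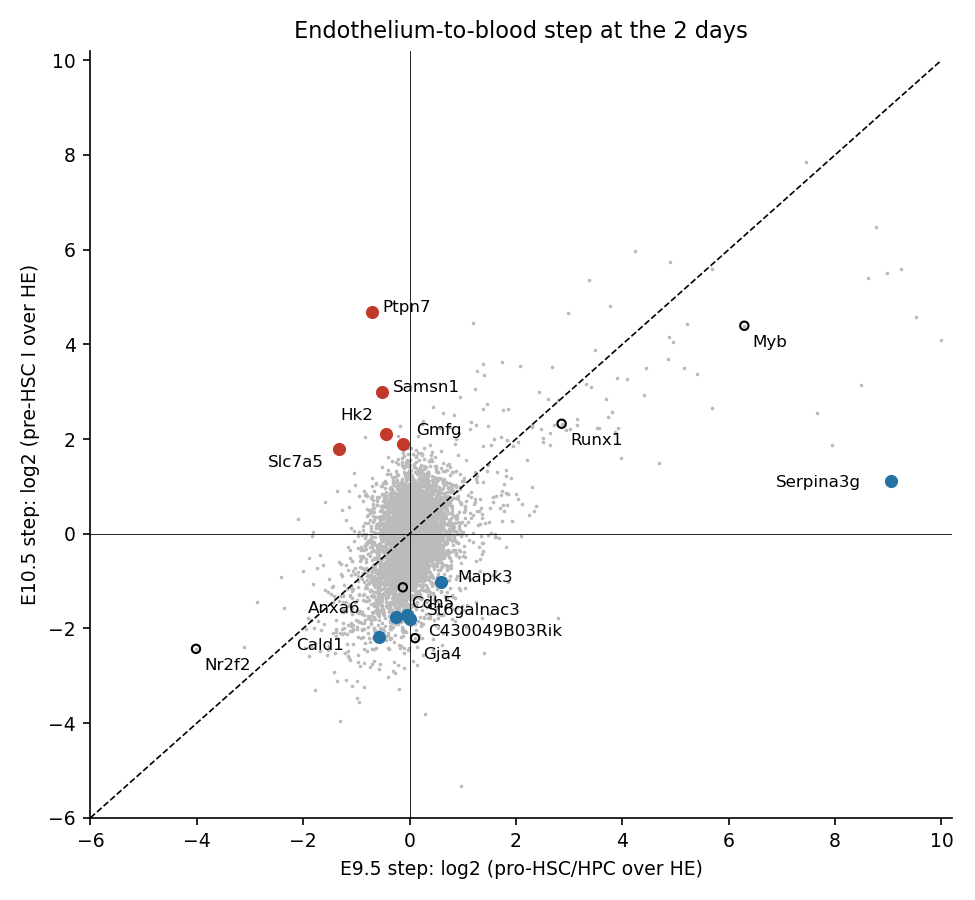
Log2 step at E9.5 (x axis) against log2 step at E10.5 (y axis) for the 8329 genes whose mean reached 10 CPM (grey), with the dashed line where both steps are equal. Red points are the 5 genes with a more positive and blue points the 6 with a more negative step at E10.5, and open circles mark Runx1, Myb, Cdh5, Gja4 and Nr2f2. Runx1 and Myb lie above 0 on both axes, while Ptpn7, Samsn1, Slc7a5, Hk2 and Gmfg lie above 0 at E10.5 and below 0 at E9.5.

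The 5 genes with a more positive step at E10.5 were low in E10.5 HE. Ptpn7, a tyrosine phosphatase of blood cells (mm9 chromosome 1, 137029302 to 137041897), stood at 16.4, 13.1 and 6.61 CPM in E9.5 HE and 7.04, 7.34 and 7.84 CPM in pro-HSC/HPC. In E10.5 HE it stood at 1.01, 1.47 and 0.483 CPM and in pre-HSC I at 26.2, 28.3 and 21.4 CPM. All E10.5 HE libraries were below all others and all pre-HSC I libraries above them. Over all genes, libraries did not overlap for 23.4% in the E10.5 step and 14% in the E9.5 step. The share was 18.5% between the blood populations and 25.2% between the HE populations. The E10.5 step was 4.68 ± 0.60 (log2 ± SE), the E9.5 step -0.70 ± 0.51 and their difference 5.38 ± 0.77 (edgeR adjusted p = 0.00199). Samsn1, an adaptor protein of blood cells (chromosome 16, 75859039 to 75909511), was measured at 40.6, 65.8 and 41.4 CPM in E9.5 HE and 14.4, 60.8 and 28.1 CPM in pro-HSC/HPC. It was at 17.3, 9.93 and 6.32 CPM in E10.5 HE and at 92.1, 102 and 75.1 CPM in pre-HSC I, with a difference of differences of 3.52 ± 0.55 (edgeR adjusted p = 0.00412). The pre-HSC I libraries were again above all others, and the lowest pro-HSC/HPC library lay within the range of E10.5 HE. Of the 11 genes Samsn1 was the one called under all 25 alternative settings.

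Hk2, hexokinase 2, which carries out the first reaction of glycolysis (chromosome 6, 82675021 to 82724448), was at 136, 145 and 94.8 CPM in E9.5 HE and 109, 98.2 and 69.4 CPM in pro-HSC/HPC. It was at 34.4, 23.7 and 45.8 CPM in E10.5 HE and 166, 127 and 153 CPM in pre-HSC I. E10.5 HE did not overlap with any other population, and the 3 other populations overlapped or lay close together. The difference of differences was 2.54 ± 0.37 (edgeR adjusted p = 0.00199), from steps of 2.10 at E10.5 and -0.44 at E9.5. Gmfg, a regulator of branched actin (chromosome 7, 29222466 to 29231914), was at 55.4, 78.04 and 80.9 CPM in E9.5 HE, 60.7, 72.5 and 64.3 CPM in pro-HSC/HPC, 36.2, 21.3 and 20.1 CPM in E10.5 HE and 118, 116 and 55.96 CPM in pre-HSC I. Again the 3 E10.5 HE libraries lay below all others, and the difference was 2.02 ± 0.39 (edgeR adjusted p = 0.0409). Slc7a5, a transporter of large neutral amino acids (chromosome 8, 124405046 to 124431586), was at 20.7, 16.6 and 17.4 CPM in E9.5 HE, 5.84, 7.50 and 8.36 CPM in pro-HSC/HPC, 5.98, 2.01 and 3.86 CPM in E10.5 HE and 4.14, 16.9 and 20.3 CPM in pre-HSC I. Here pre-HSC I replicate 1 and pro-HSC/HPC replicate 1 lay within the range of E10.5 HE. The steps were 1.80 at E10.5 and -1.33 at E9.5, the latter not called (edgeR adjusted p = 0.256). Their difference was 3.13 ± 0.61 (edgeR adjusted p = 0.0409). Leaving out 1 library at a time, Ptpn7, Samsn1 and Hk2 were called in all 12 fits, Gmfg in 4 and Slc7a5 in 2. Without the libraries rich in hemoglobin, Ptpn7, Hk2, Gmfg and Slc7a5 were not called, at differences of 5.56, 2.28, 2.41 and 3.05.

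The difference of differences equals the change between days in the blood populations minus that in HE. For these 5 genes the HE part was the called one. They were chosen by the difference that contains this part, so its p-values are not an independent result. The log2 difference E10.5 HE minus E9.5 HE was -3.61 for Ptpn7, -2.14 for Samsn1, -2.20 for Slc7a5, -1.85 for Hk2 and -1.46 for Gmfg, with edgeR adjusted p from 0.000339 to 0.00447. Between the blood populations the same genes differed by 0.55 to 1.77, with none called (edgeR adjusted p from 0.0694 to 0.414, unadjusted from 0.00123 to 0.0525). Among all genes 555 (3.64%) were called between the HE populations, 227 (1.49%) higher and 328 (2.15%) lower at E10.5. Between the blood populations 221 (1.45%) were called, 35 (0.23%) higher and 186 (1.22%) lower in pre-HSC I. The next genes by p in this direction were Mpp6, Slc22a3, Mns1, Mthfd1l and Ncl, with differences of 1.79, 4.70, 1.88, 1.82 and 1.24. They were not called (edgeR adjusted p from 0.059 to 0.0736) but were called with the replicate block within day (adjusted p from 9.51e-05 to 0.0143). Exons of Mns1 overlap with Tex9, so its value is uncertain.

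**Figure D3:**
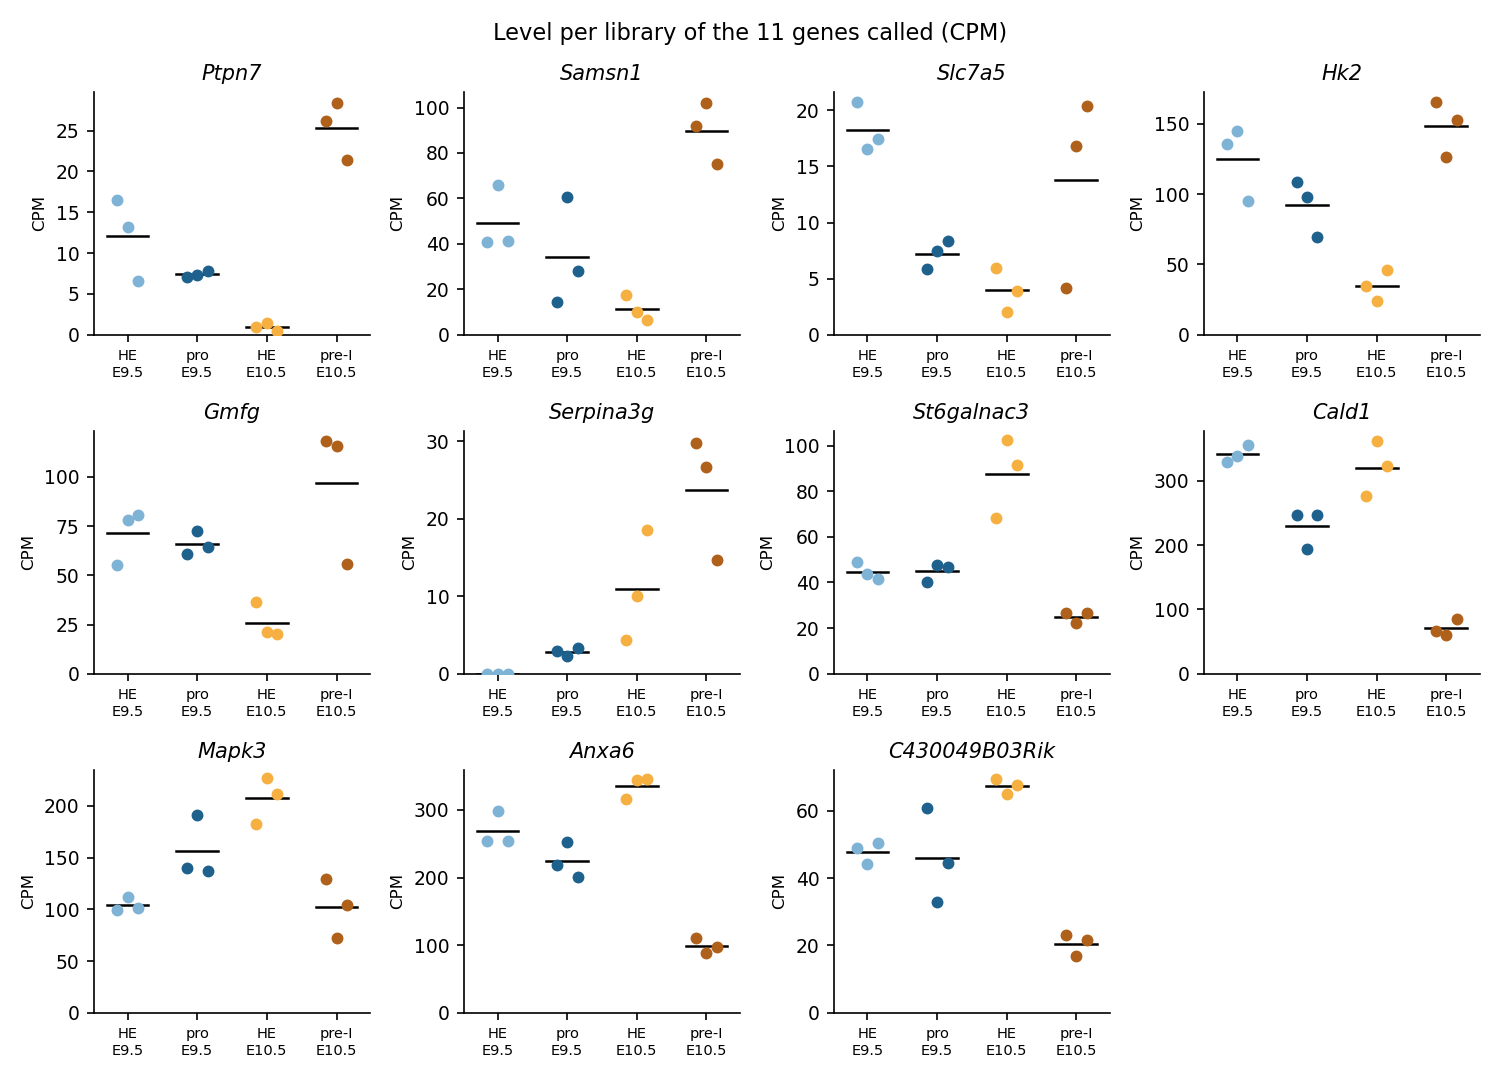
CPM per library of the 11 genes called in the difference of differences, with each y axis starting at 0. Points are the 3 libraries of E9.5 HE, E9.5 pro-HSC/HPC (pro), E10.5 HE and E10.5 pre-HSC I (pre-I), and lines are means. E10.5 HE is the lowest of the 4 populations for Ptpn7, Samsn1, Slc7a5, Hk2 and Gmfg, and pre-HSC I is the lowest for St6galnac3, Cald1, Mapk3, Anxa6 and C430049B03Rik, though for Mapk3 it overlaps with E9.5 HE.

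The 6 genes with a more negative step at E10.5 took 2 forms. Serpina3g, a serine protease inhibitor (chromosome 12, 105452754 to 105480144), was at 0 counts in all 3 E9.5 HE libraries and at 2.996, 2.25 and 3.34 CPM in pro-HSC/HPC. It was at 4.36, 10.1 and 18.5 CPM in E10.5 HE and 29.8, 26.7 and 14.7 CPM in pre-HSC I, so the 2 E10.5 populations overlapped. Pro-HSC/HPC was at least 62.9-fold higher than E9.5 HE, with E9.5 HE set to the limit of 3 counts summed over its libraries. Between the blood populations it was higher in pre-HSC I, by a log2 of 3.05 (edgeR adjusted p = 0.00525). Its steps differed (edgeR adjusted p = 0.021), and the fitted value of -7.93 depends on the prior count because of the zeros. Its exons overlap with Serpina3f, so reads of the 2 genes may be split in ways not given in the sources used here.

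The other 5 fell at the E10.5 step and were not called at the E9.5 step. Cald1, caldesmon, which binds actin (chromosome 6, 34659444 to 34725469), was at 330.0, 339 and 355 CPM in E9.5 HE, 247, 195 and 247 CPM in pro-HSC/HPC, 276, 363 and 324 CPM in E10.5 HE and 66.8, 60.1 and 85.1 CPM in pre-HSC I. Pre-HSC I lay below all other libraries, and the steps were -2.18 at E10.5 and -0.57 at E9.5. Anxa6, an annexin that binds membranes with calcium (chromosome 11, 54792464 to 54846973), was at 254, 299 and 253 CPM in E9.5 HE, 219, 252 and 201 CPM in pro-HSC/HPC, 317, 344 and 346 CPM in E10.5 HE and 111, 88.1 and 97.02 CPM in pre-HSC I. Pre-HSC I was again the lowest, with steps of -1.76 and -0.26. St6galnac3, a sialyltransferase (chromosome 3, 152865473 to 153388097), was at 48.8, 43.6 and 41.5 CPM in E9.5 HE and 40.1, 47.8 and 46.7 CPM in pro-HSC/HPC, which overlapped. It was at 68.3, 102 and 91.6 CPM in E10.5 HE, above both, and at 26.4, 22.2 and 26.6 CPM in pre-HSC I, below both.

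Mapk3, the kinase ERK1 (chromosome 7, 133903140 to 133909330), was at 99.6, 112 and 101 CPM in E9.5 HE, 140.2, 192 and 138 CPM in pro-HSC/HPC, 183, 227 and 212 CPM in E10.5 HE and 129.7, 72.5 and 104 CPM in pre-HSC I. Pre-HSC I overlapped with E9.5 HE and lay below E10.5 HE. C430049B03Rik, an unnamed gene model whose exons overlap with the microRNA genes Mir322, Mir351 and Mir503 (chromosome X, 50406289 to 50410367), was at 48.9, 44.3 and 50.4 CPM in E9.5 HE, 60.9, 33.01 and 44.5 CPM in pro-HSC/HPC, 69.5, 65.2 and 67.7 CPM in E10.5 HE and 23.2, 16.8 and 21.6 CPM in pre-HSC I. Its pre-HSC I libraries lay below and its E10.5 HE libraries above all others. It falls outside the rule for named genes and was named after its values were seen. The differences between the steps were -1.61 ± 0.32 for Cald1, -1.50 ± 0.28 for Anxa6, -1.81 ± 0.33 for St6galnac3, -1.60 ± 0.32 for Mapk3 and -1.66 ± 0.33 for C430049B03Rik, with edgeR adjusted p from 0.0288 to 0.0442. Cald1, Anxa6 and C430049B03Rik were lower in pre-HSC I than in pro-HSC/HPC, with log2 differences of -1.70, -1.18 and -1.17 (edgeR adjusted p = 0.000258, 0.00142 and 0.00831). St6galnac3 and Mapk3 were instead higher in E10.5 HE than in E9.5 HE, by 0.97 and 0.99 (edgeR adjusted p = 0.0193 and 0.0112). These genes too were chosen by the difference that contains both contrasts. With 1 library left out at a time, each of these 5 genes was called in 2 or 3 of 12 fits and Serpina3g in 6. Without the libraries rich in hemoglobin none of the 6 was called, at differences of -1.87 for Cald1, -1.46 for Anxa6, -1.69 for St6galnac3, -1.46 for Mapk3, -2.10 for C430049B03Rik and a fitted -7.73 for Serpina3g. The next named genes by p in this direction were Smim14, Sparc, Gja4, Ece1 and Smtnl2, with differences of -2.16, -1.70, -2.31, -1.40 and -1.51. They were not called (edgeR adjusted p from 0.059 to 0.0736) but were called with the replicate block within day (adjusted p from 0.00029 to 0.0143).

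The sequences before the starts of called genes were read for the letters TGTGGT, the core that RUNX factors bind, on both strands. RefSeq windows (GRCm38.p6, another build than the mm9 coordinates of the counts) of 250 bases before a start were found for 7 of the 11 genes. The letters stood in windows of 2 of them, Gmfg and Serpina3g, and in windows of 1470 of the 11308 tested genes that were matched (13.0%). They stood in windows of 1 of 18 matched blood transcription factors, 6 of 24 matched blood surface and signalling genes, 3 of 21 matched ribosome biogenesis and MYC genes, 0 of 12 matched endothelial identity genes and 0 of 16 matched arterial genes. The 2 windows are shown because they are the windows of called genes that hold the letters, given in capitals, 1 from each direction. For Gmfg, the window at its second listed start is chr7:28440687-28440936 on the plus strand, with the letters at bases 245 to 250. For Serpina3g the window is chr12:104235897-104236146 on the plus strand, with the letters at bases 38 to 43. A match describes the letters alone.
Gmfg: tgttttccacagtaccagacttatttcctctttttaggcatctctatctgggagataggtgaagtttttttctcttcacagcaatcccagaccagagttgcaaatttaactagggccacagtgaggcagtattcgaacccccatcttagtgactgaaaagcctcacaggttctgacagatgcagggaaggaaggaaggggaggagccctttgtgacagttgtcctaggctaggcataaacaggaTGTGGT
Serpina3g: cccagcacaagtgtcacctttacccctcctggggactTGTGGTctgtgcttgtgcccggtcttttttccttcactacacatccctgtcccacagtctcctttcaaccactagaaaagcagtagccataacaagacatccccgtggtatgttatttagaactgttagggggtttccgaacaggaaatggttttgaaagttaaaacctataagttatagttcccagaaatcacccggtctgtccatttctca

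Most endothelial genes fell at the E10.5 step, and fewer were called at the E9.5 step. Of 28 endothelial identity genes 22 fell at E10.5, with a median log2 step of -1.43, against 3.8% of all genes called lower. At E9.5 the median was -0.35 and 1 gene, the transcription factor Ets1, fell by edgeR, with 25 of 28 values negative. At E9.5 6 were lower at an unadjusted p under 0.05, 2 by DESeq2, 4 by limma voom and 6 with the replicate block within day. The list's mean log2(CPM + 1) was 7.67, 7.59 and 7.85 in E9.5 HE and 7.30, 7.12 and 7.45 in pro-HSC/HPC. It was 7.86, 7.93 and 8.06 in E10.5 HE, with 6.54, 6.34 and 6.63 in pre-HSC I, below all other libraries. Between the steps the list had a median difference of -1.06, against -0.042 over all genes tested, and was negative in 27 of 28. No single member was called in it by edgeR, 15 had an unadjusted p under 0.05, DESeq2 called 4 and limma voom 10, all lower. With the replicate block within day 15 of the 28 were called, all lower. At E10.5 17 of the 28 fell without the libraries rich in hemoglobin, and the median difference was then -1.11.

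Cdh5, the cadherin of endothelial junctions, was at 756, 602 and 997 CPM in E9.5 HE and 739, 521 and 898 CPM in pro-HSC/HPC, which overlapped. It was at 739, 721 and 696 CPM in E10.5 HE and fell to 262, 302 and 419.9 CPM in pre-HSC I. The steps were -1.13 ± 0.29 (edgeR adjusted p = 0.0157) and -0.13 ± 0.29, and their difference of -1.005 ± 0.41 was called with the block alone (adjusted p = 0.372 without and 0.0294 with the replicate block). Pecam1, an adhesion molecule of endothelium and blood, had a difference of -1.51 ± 0.45 (edgeR adjusted p = 0.185, and 0.00349 with the replicate block). Ramp2, Icam2, Ecscr and Tek, a receptor partner, 2 cell surface proteins and the angiopoietin receptor of endothelium, had differences of -1.49, -1.58, -1.31 and -1.14. All 4 were called with the replicate block (adjusted p from 0.00029 to 0.00717) and none without it (from 0.0736 to 0.145). Kdr, the main VEGF receptor, had steps of -1.81 at E10.5, which was called, and -0.998 at E9.5, with a difference of -0.81 ± 0.37 that was not called (edgeR adjusted p = 0.467).

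Arterial genes had the median difference of largest size among the 20 pathway lists. Of 20 arterial genes 12 fell at E10.5 (median -1.72), against 3.8% of all genes. At E9.5 edgeR called none (median -0.0758, 1 gene lower at an unadjusted p under 0.05, 0 by DESeq2 and 1 lower by limma voom). The difference was negative in 20 of 20, with a median of -1.66. EdgeR called 0 of them, 12 had an unadjusted p under 0.05, DESeq2 called 2 and limma voom 13. With the replicate block 4 were called lower, Gja4, Efnb2, Notch1 and Acvrl1, against 1.93% of all genes. Gja4, connexin 37, was at 448, 531 and 317 CPM in E9.5 HE, 495, 515 and 383 CPM in pro-HSC/HPC, 1607, 1451 and 1859.8 CPM in E10.5 HE and 463, 291 and 313 CPM in pre-HSC I. E10.5 HE lay above all other libraries, and the other 3 populations overlapped or lay close together. The difference was -2.31 ± 0.50 (edgeR adjusted p = 0.0736, and 0.00717 with the replicate block), and E10.5 HE was above E9.5 HE by 1.92 (adjusted p = 0.00299). Without replicate 1 of both E10.5 populations 5 of the 20 fell at E10.5, and the median difference was -1.69. Gja5, connexin 40, had a difference of -2.05 ± 0.75 that was not called (edgeR adjusted p = 0.313). Between the HE populations 2 arterial genes were called higher at E10.5, Gja4 and the Notch ligand Jag1, against 1.49% of all genes. Between the blood populations 2 were called lower in pre-HSC I, the receptors Notch1 and Acvrl1, against 1.22% of all genes.

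Venous genes included members that fell in both steps. Of 10 venous and lymphatic genes 5 fell at E10.5 (median -2.06) and 3 at E9.5 (median -1.1), against 3.8% and 0.151% of all genes. Among these, 2 genes, Nr2f2 and Flt4, fell in both. Nr2f2, the transcription factor COUP-TFII of veins, was at 192, 262 and 196 CPM in E9.5 HE, 14.98, 13.4 and 11.7 CPM in pro-HSC/HPC, 195, 16.1 and 39.8 CPM in E10.5 HE and 25.00, 4.95 and 16.5 CPM in pre-HSC I. At E9.5 the libraries of the 2 populations did not overlap, as was so for 14% of all genes, while at E10.5 they did. E10.5 HE replicate 1 stood apart within its group and is the same library that was highest in mesenchyme markers, and the part of that in Nr2f2 was not tested. For Nr2f2 the steps differed by 1.58 ± 0.96 (edgeR adjusted p = 0.622), and no venous gene was called in it (1 lower at an unadjusted p under 0.05, 0 by DESeq2 and 0 by limma voom). Without the libraries rich in hemoglobin 3 venous genes fell at E10.5 and edgeR called 0 at E9.5.

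Signalling lists of the vessel wall had more calls at E10.5 than at E9.5. In the Notch pathway 4 of 19 genes fell at E10.5, Notch1, Notch4, Jag1 and Hey2, and none at E9.5 by edgeR (2 lower at an unadjusted p under 0.05, 1 by DESeq2 and 1 by limma voom). Its median difference was -1.04, and all 4 genes are also on the arterial list. With the replicate block 8 fell and 1 rose at E10.5, and without replicate 1 of both E10.5 populations 2 fell and 1 rose. In the TGF-beta and BMP pathway 6 of 20 fell at E10.5, Tgfbr3, Acvrl1, Smad7, Id1, Id2 and Id3, with none at E9.5 by edgeR, DESeq2 or limma voom (1 lower at an unadjusted p under 0.05), and the median difference was -0.684. At E10.5 12 of the list fell with the replicate block, against 8.03% of all genes. Without replicate 1 of both E10.5 populations 3 fell, in a fit that called 435 of 15750 genes lower there. Without the libraries rich in hemoglobin the list's median E10.5 step was -1.04. In the main fit 3.8% of all genes fell at E10.5. Id3, an inhibitor of basic helix-loop-helix factors, was at 1779, 1139.7 and 1336 CPM in E10.5 HE and 727, 279 and 278 CPM in pre-HSC I, and its difference was -1.69 ± 0.46 (edgeR adjusted p = 0.131, and 0.000437 with the replicate block). Of 15 flow response and vascular tone genes 6 fell and 1 rose at E10.5, and 1, the phosphodiesterase Pde2a, fell at E9.5. At E10.5 3 fell and 1 rose without the libraries rich in hemoglobin, and edgeR then called 0 at E9.5. Pde2a had steps of 0.32 at E10.5 and -2.11 at E9.5 and a difference of 2.42 ± 0.71 (edgeR adjusted p = 0.177, and 0.0454 with the replicate block). Tmem100, a membrane protein of arterial endothelium, was at 741, 896 and 739 CPM in E10.5 HE and 124, 104 and 90.9 CPM in pre-HSC I, with a difference of -2.59 ± 0.78 (edgeR adjusted p = 0.185, and 0.00183 with the replicate block).

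**Figure D4:**
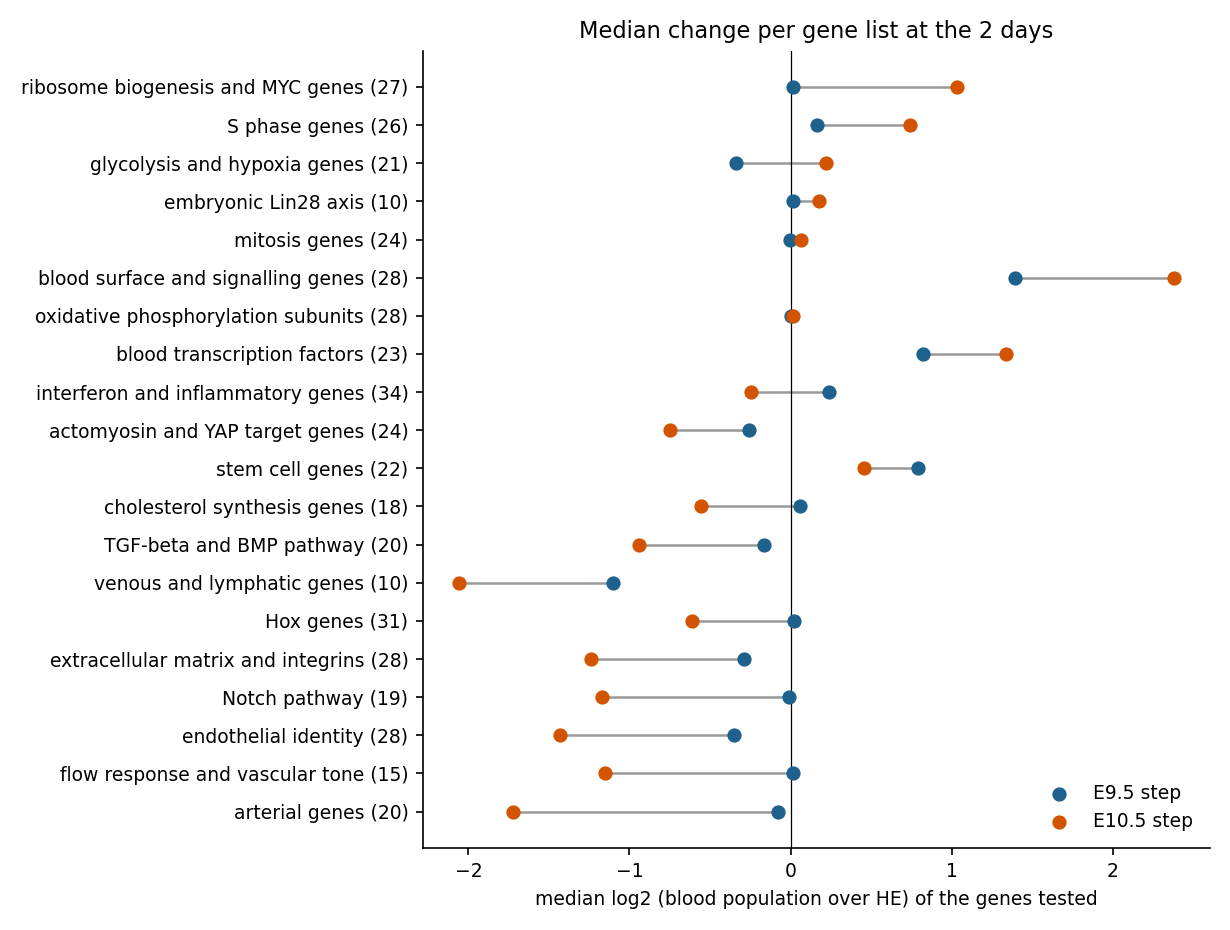
Median log2 step of the tested genes of each list at E9.5 (blue) and E10.5 (orange), ordered by the median difference of differences, with the number of genes tested in brackets. Ribosome biogenesis genes have medians near 0 at E9.5 and 1.03 at E10.5, arterial genes -0.0758 and -1.72, and blood transcription factors and blood surface genes are above 0 at both days.

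Some blood transcription factors rose in each step, and edgeR called none as different between the steps. Of 23 tested, 6 rose at E10.5 (Runx1, Gfi1b, Myb, Gata1, Ikzf1 and Ikzf2), against 3.08% of all genes called higher, and 7 rose at E9.5 (Runx1, Gfi1, Gfi1b, Myb, Ikzf1, Ikzf2 and Nfe2), against 0.505%. With the replicate block the counts were 9 and 10, and without the libraries rich in hemoglobin they were 6 and 2. In the difference of differences 1 gene was more positive and 2 were more negative at an unadjusted p under 0.05, and DESeq2, limma voom and the fit with the block called 0 each. Runx1, which starts the change to blood, was at 36.9, 30.8 and 37.4 CPM in E9.5 HE and rose to 273, 226 and 263 CPM in pro-HSC/HPC. In E10.5 HE it was at 39.5, 43.04 and 52.3 CPM and rose to 172, 229 and 274 CPM in pre-HSC I. The blood populations overlapped between days, and E10.5 HE lay just above E9.5 HE. The steps were 2.86 ± 0.36 at E9.5 and 2.32 ± 0.35 at E10.5, and their difference was -0.54 ± 0.48, with a 95% interval of -1.47 to 0.40 (edgeR adjusted p = 0.816). The hemoglobin-poor library pro-HSC/HPC replicate 1 had the highest of the 3 values.

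Myb, a factor that definitive blood needs, was at 0.473, 1.13 and 0 CPM in E9.5 HE, 39.5, 39.4 and 50.1 CPM in pro-HSC/HPC, 13.5, 4.18 and 5.49 CPM in E10.5 HE and 112, 193 and 183 CPM in pre-HSC I. Each population lay apart from the others. Its steps were 6.29 ± 0.86 at E9.5 and 4.39 ± 0.74 at E10.5, and the start of the step was higher at E10.5, where HE exceeded E9.5 HE by 3.82 (edgeR adjusted p = 0.00671). The difference of the steps was -1.90 ± 1.01 (edgeR adjusted p = 0.537). Gfi1b, a repressor, had 3 counts in all E9.5 HE libraries together and 1685 in pro-HSC/HPC, a ratio of 473 with a counting interval of 162 to 2300. Such intervals cover counting error only, not the spread between amplified libraries. Nfe2, a factor of erythroid cells and megakaryocytes, had 2 counts in E9.5 HE and 992 in pro-HSC/HPC, a ratio of 418 (115 to 3460), and it stood at 9.80, 6.58 and 1.76 CPM in E10.5 HE and 64.8, 49.3 and 46.5 CPM in pre-HSC I. Gata1, an erythroid and megakaryocyte factor, was at 0, 9.29 and 5.46 CPM in pro-HSC/HPC and 6.26, 7.19 and 4.35 CPM in pre-HSC I, so the hemoglobin-poor pro-HSC/HPC library had none, while all pre-HSC I libraries had it. Gata2 was at 113, 91.3 and 89.5 CPM in E9.5 HE, 199, 178 and 143 CPM in pro-HSC/HPC, 230.3, 226 and 184 CPM in E10.5 HE and 239.9, 193 and 193 CPM in pre-HSC I, with a difference of -0.86 ± 0.29 (edgeR adjusted p = 0.255, and 0.054 with the replicate block).

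Of 28 blood surface and signalling genes 14 rose at E10.5 and 8 at E9.5, against 3.08% and 0.505% of all genes, with medians of 2.38 and 1.39. The list's mean log2(CPM + 1) was 2.90 in E9.5 HE, 4.04 in pro-HSC/HPC, 3.44 in E10.5 HE and then 5.34 in pre-HSC I. Between the blood populations 5 were higher in pre-HSC I (Ptprc, Cd47, Coro1a, Rac2 and Ptpn6), against 0.23% of all genes. Between the HE populations 5 were higher at E10.5 (Ptprc, Laptm5, Ptpn6, Dock2 and Ucp2), against 1.49% of all genes. Without the libraries rich in hemoglobin 14 rose at E10.5 and 1 at E9.5. The median difference between the steps was 0.0406. EdgeR called 0 of 28 in it, and 6 were more positive and 2 more negative at an unadjusted p under 0.05. DESeq2 and limma voom called 3 each. With the replicate block 4 were called, all more positive (Cd47, Coro1a, Rac2 and Nckap1l), against 1.53% of all genes. Rac2, the Rac GTPase of blood cells, was at 8.01, 13.00 and 6.72 CPM in pro-HSC/HPC and 72.9, 55.9 and 35.7 CPM in pre-HSC I, with a difference of 2.19 ± 0.51 (edgeR adjusted p = 0.0761, and 0.0103 with the replicate block). Ptprc, the antigen CD45, was at 0.749, 1.25 and 0.817 CPM in pro-HSC/HPC and 5.66, 13.3 and 15.2 CPM in pre-HSC I. These libraries did not overlap, as was so for 18.5% of all genes. Kit, the stem cell factor receptor, rose at E10.5 from 55.3, 35.6 and 61.8 to 148, 255 and 328 CPM and was not called at E9.5, where it went from 91.9, 72.4 and 52.9 to 125, 121 and 124 CPM. The difference of 1.49 ± 0.50 was not called (edgeR adjusted p = 0.254, and 0.089 with the replicate block). Spn, Itga2b and Cd44 had differences of -0.15 ± 1.36, 1.94 ± 0.61 and -0.44 ± 0.42, none called.

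**Figure D5:**
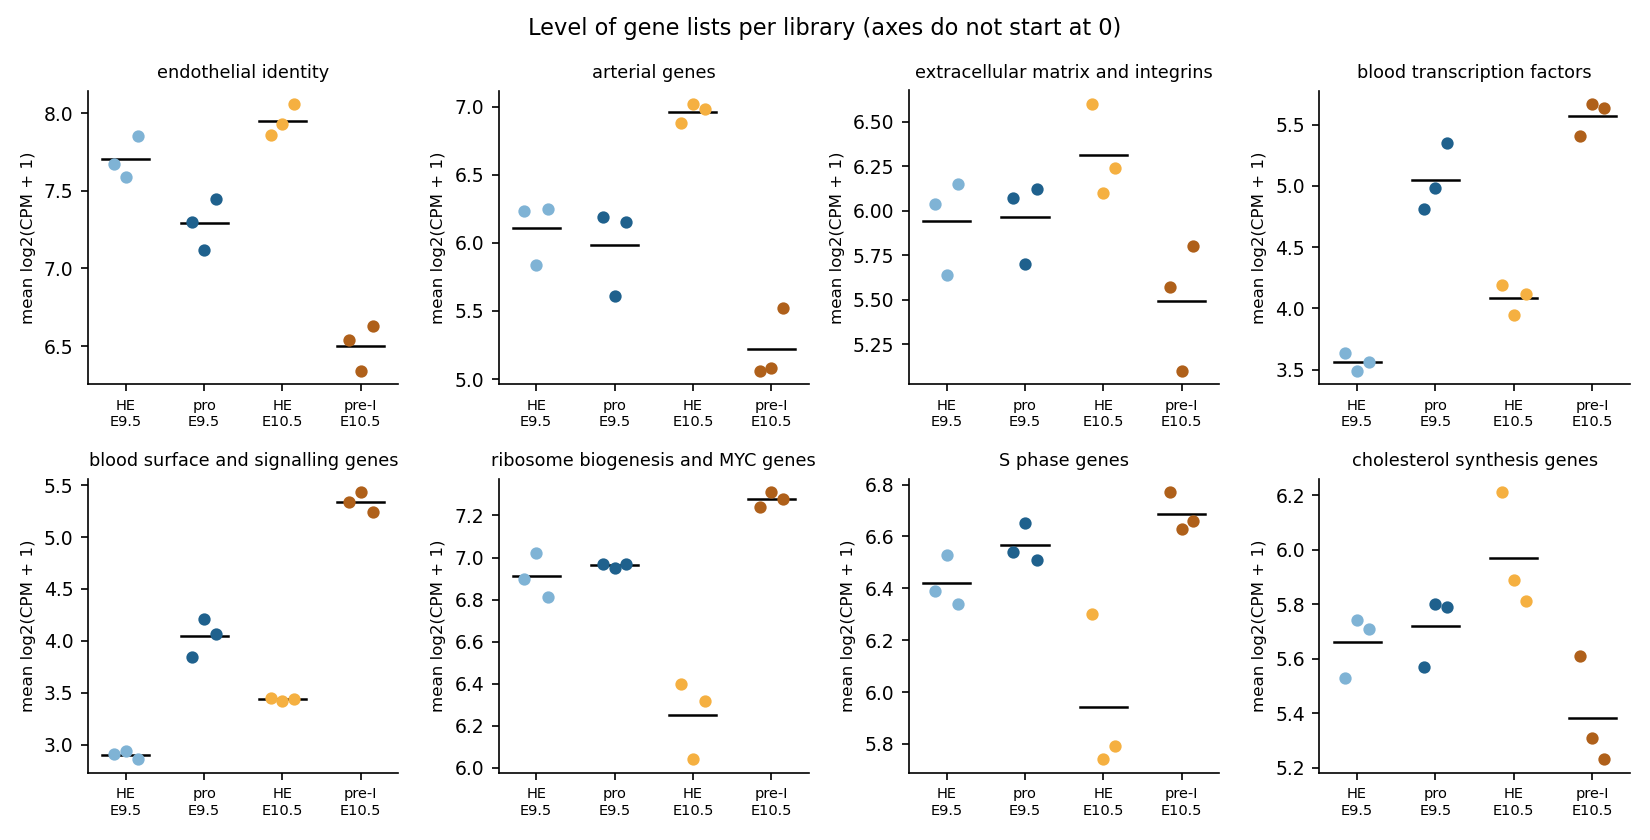
Mean log2(CPM + 1) of 8 gene lists per library (y axes do not start at 0). Points are the 3 libraries of E9.5 HE, pro-HSC/HPC (pro), E10.5 HE and pre-HSC I (pre-I), and lines are means. The means of ribosome biogenesis genes are 6.91 and 6.97 in the E9.5 populations and 6.25 and 7.28 in E10.5 HE and pre-HSC I, and those of arterial genes are 6.10, 5.98, 6.96 and 5.22 in the same order.

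No stem cell gene was called by edgeR as different between the steps. Of 22 tested, 4 rose at E10.5, among them Gpr56, Angpt1 and Msi2, and 3 at E9.5 (Meis1, Gpr56 and Angpt1). The shares of all genes were 3.08% and 0.505%, and the median difference of the list was -0.577. At E10.5 9 rose and 1 fell with the replicate block and at E9.5 7 rose, and without the libraries rich in hemoglobin 3 and 1 rose. Without replicate 1 of both E10.5 populations 2 rose at E10.5. Between the HE populations 6 were higher at E10.5, among them Hlf, Procr and Meis1, against 1.49% of all genes. Procr, the protein C receptor, was at 14.9, 23.96 and 25.3 CPM in E9.5 HE, 69.7, 61.9 and 66.4 CPM in pro-HSC/HPC, 82.97, 122 and 107 CPM in E10.5 HE and 75.5, 127 and 93.6 CPM in pre-HSC I, and E9.5 HE lay below the other populations. Mecom, a stem cell factor also expressed in arterial endothelium, and Procr were called lower with the replicate block (differences -1.07 and -1.74, adjusted p = 0.037 and 0.0323) and not without it (edgeR adjusted p = 0.475 and 0.334). In this comparison DESeq2 called 0, limma voom called 1 lower, and at an unadjusted p under 0.05 there were 1 higher and 2 lower.

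Ribosome biogenesis genes rose at the E10.5 step, from a low level in E10.5 HE. Of 27 ribosome biogenesis and MYC genes 16 rose at E10.5, against 3.08% of all genes, with a median of 1.03. At E9.5 1 rose, the factor Mycn, against 0.505% of all genes, with a median of 0.0162. The list's mean log2(CPM + 1) was 6.90, 7.02 and 6.81 in E9.5 HE, 6.97, 6.95 and 6.97 in pro-HSC/HPC and 7.24, 7.31 and 7.28 in pre-HSC I. In E10.5 HE it was 6.40, 6.04 and 6.32, below all others. The difference between the steps was positive in 27 of 27, with a median of 0.954. EdgeR called 0, 20 had an unadjusted p under 0.05, DESeq2 called 5 and limma voom 7. With the replicate block 16 were called, all higher, against 1.53% of all genes. Between the HE populations 8 were lower at E10.5 (Ncl, Npm1, Nop58, Ddx21, Gnl3, Mrto4, Srm and Odc1), against 2.15% of all genes. Between the blood populations 0 were called (3 higher at an unadjusted p under 0.05). Without the libraries rich in hemoglobin 12 rose at E10.5 and 0 were called at E9.5, with a median difference of 0.926. Ncl, nucleolin, was at 2059.7, 2322 and 2065 CPM in E9.5 HE, 2002, 1749 and 1804 CPM in pro-HSC/HPC, 1219, 875 and 1140.2 CPM in E10.5 HE and 2485, 2026 and 2076 CPM in pre-HSC I. E10.5 HE lay below all others, and the difference was 1.24 ± 0.28 (edgeR adjusted p = 0.0736, and 9.51e-05 with the replicate block). Srm, spermidine synthase, had a difference of 1.74 ± 0.49 (edgeR adjusted p = 0.145, and 0.0302 with the replicate block). Myc was at 61.7, 41.7 and 54.9 CPM in E10.5 HE and 98.7, 150.4 and 113 CPM in pre-HSC I, with a difference of 1.52 ± 0.62 that was not called (edgeR adjusted p = 0.372, and 0.137 with the replicate block).

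S phase genes, which copy DNA, were likewise called at E10.5 and not at E9.5. Of 26, 9 rose at E10.5 (median 0.739), against 3.08% of all genes. None rose at E9.5 (median 0.167, and 0 at an unadjusted p under 0.05, by DESeq2 and by limma voom). The difference was positive in 26 of 26, with a median of 0.546, and 7 had an unadjusted p under 0.05. EdgeR and DESeq2 called 0 and limma voom 2. With the replicate block 5 were called, all higher, among them Mcm2, Mcm3 and Uhrf1, against 1.53% of all genes. At E10.5 18 rose with the replicate block and 4 without the libraries rich in hemoglobin. Uhrf1, which maintains DNA methylation at replication, was at 246, 256 and 300.2 CPM in E9.5 HE, 267, 238 and 262 CPM in pro-HSC/HPC, 210.2, 128 and 131 CPM in E10.5 HE and 337, 280.3 and 264 CPM in pre-HSC I. Mitosis genes had a median difference of 0.154, and 1 of 24, the cyclin Ccna2, rose at E10.5, near the 3.08% of all genes. At E10.5 4 mitosis genes rose and 1 fell with the replicate block, against 7.25% and 8.03% of all genes. Ccnd1, cyclin D1, was called at E9.5 instead. It was at 122, 163 and 205 CPM in E9.5 HE, 24.5, 31.6 and 35.5 CPM in pro-HSC/HPC, 60.4, 30.1 and 38.1 CPM in E10.5 HE and 22.7, 23.2 and 22.7 CPM in pre-HSC I, so that E9.5 HE lay above all others. Its step was -2.42 ± 0.32 at E9.5, which was called, and -0.91 ± 0.31 at E10.5, which was not, with a difference of 1.51 ± 0.44 (edgeR adjusted p = 0.17, and 0.00882 with the replicate block).

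Calls among metabolic genes differed by list and by fit. Of 21 glycolysis and hypoxia genes Hk2 rose and Vegfa fell at E10.5, near the 3.08% and 3.8% of all genes. None was called at E9.5 by edgeR or DESeq2 (3 lower at an unadjusted p under 0.05, 1 lower by limma voom). The median difference was 0.466. With the replicate block 4 were called higher (Hk2, Pgam1, Ldha and Bnip3) and Vegfa lower, against 1.53% and 1.93% of all genes. Between the HE populations 8 of the 21 were lower at E10.5, and between the blood populations 3 were lower in pre-HSC I. Oxidative phosphorylation subunits had medians of 0.0128 at E10.5 and 0.00141 at E9.5, with 0 of 28 called in either step by edgeR, DESeq2 or limma voom and 2 at E10.5 and 0 at E9.5 at an unadjusted p under 0.05. Of the 28, 3 rose at E10.5 with the replicate block and 1 was called higher in the difference of differences, against 7.25% and 1.53% of all genes. The median difference was 0.0197, with 15 of 28 positive, and without the libraries rich in hemoglobin it was 0.297, with 25 of 28 positive. Of 18 cholesterol synthesis genes, Cyp51 and Nsdhl fell at E10.5, against 3.8% of all genes. None was called at E9.5 by edgeR, DESeq2 or limma voom or at an unadjusted p under 0.05. Their median difference was -0.638. Nsdhl was at 45.7, 66.2 and 52.3 CPM in E9.5 HE, 56.9, 96.1 and 54.9 CPM in pro-HSC/HPC, 103, 91.3 and 86.3 CPM in E10.5 HE and 51.5, 37.6 and 35.6 CPM in pre-HSC I, with a difference of -1.51 ± 0.37 (edgeR adjusted p = 0.0954, and 0.00068 with the replicate block). With the block 10 of the 18 fell at E10.5, against 8.03% of all genes. In the difference of differences 5 were called lower, against 1.93% of all genes: Idi1, Fdps, Fdft1, Cyp51 and Nsdhl.

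Of the extracellular matrix genes more fell than rose at the E10.5 step. Of 28 extracellular matrix and integrin genes 13 fell and 2 rose at E10.5 (median -1.24), against 3.8% and 3.08% of all genes. At E9.5 1, the integrin subunit Itgb3, rose (median -0.288). Sparc, a matrix glycoprotein, was at 1309, 1374 and 1129 CPM in E9.5 HE, 991, 1018 and 880.5 CPM in pro-HSC/HPC, 1689, 1556 and 2068 CPM in E10.5 HE and 571, 282 and 382 CPM in pre-HSC I. Its difference was -1.70 ± 0.36 (edgeR adjusted p = 0.0736, and 0.00175 with the replicate block). The median difference of the list was -0.973, and 6 members were called lower with the block, against 1.93% of all genes. Mesenchyme markers were high in replicate 1 of both E10.5 populations, with Col1a1 at 3218 counts in E10.5 HE replicate 1 and Lum at 1562 counts in pre-HSC I replicate 1, and their part in the result was not tested. Without those 2 libraries the median was -0.802, and 5 genes of the list fell and 2 rose at E10.5. Of 24 actomyosin and YAP target genes 8 fell at E10.5 (median -0.749), against 3.8% of all genes. EdgeR called 0 at E9.5 (4 lower and 1 higher at an unadjusted p under 0.05, 2 lower by DESeq2 and 2 lower by limma voom). Of the 24, 13 fell at E10.5 and 2 at E9.5 with the replicate block, against 8.03% and 0.564% of all genes. With the block 4 were called lower in the difference of differences, against 1.93% of all genes. At E10.5 5 fell without the libraries rich in hemoglobin.

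Of 34 interferon and inflammatory genes 1 rose (Ifitm1) and 2 fell (Nfkbia and Il6st) at E10.5, near the 3.08% and 3.8% of all genes. Without replicate 1 of both E10.5 populations edgeR called 0 there. None was called at E9.5 by edgeR (3 higher and 1 lower at an unadjusted p under 0.05, 1 by DESeq2 and 2 by limma voom). The fit with the replicate block called 1 higher and 5 lower at E10.5, against 7.25% and 8.03% of all genes. It called 2 higher at E9.5 and 3 lower in the difference of differences, against 0.866% and 1.93% of all genes. Ifitm3, an interferon-induced membrane protein, was at 115, 105 and 102 CPM in E9.5 HE, 213, 229 and 187 CPM in pro-HSC/HPC, 387, 271 and 288 CPM in E10.5 HE and 319, 145 and 155 CPM in pre-HSC I. E9.5 HE was the lowest and E10.5 HE overlapped with pre-HSC I. Its difference was -1.58 ± 0.42 (edgeR adjusted p = 0.126, and 0.000624 with the replicate block), and reads of Ifitm genes may be shared between close copies. Lin28a and Lin28b, RNA-binding proteins of embryonic cells, and Igf2bp1 were lower in E10.5 HE than in E9.5 HE. Lin28a was also lower in pre-HSC I than in pro-HSC/HPC (log2 -5.44, edgeR adjusted p = 0.00517). Between these blood populations 6 of the 10 genes of the embryonic Lin28 axis were lower at an unadjusted p under 0.05. Of the 10 genes Mycn rose in both steps. Of 31 Hox genes 3 fell at E10.5 (Hoxb7, Hoxd8 and Hoxd9), against 3.8% of all genes. EdgeR called 0 at E9.5 (1 higher and 2 lower at an unadjusted p under 0.05, 1 lower by DESeq2, 1 higher and 1 lower by limma voom). EdgeR called 0 Hox genes in both steps without the libraries rich in hemoglobin.

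The median differences of hemoglobins and of red cell and platelet markers changed when the libraries rich in hemoglobin were left out. Of 7 hemoglobin genes in the table, Hba-a1, Hba-a2, Hbb-b1 and Hbb-b2 were at 0 counts in all 12 libraries. Reads of Hba-a1 and Hba-a2, and of Hbb-b1 and Hbb-b2, may be shared between close copies. The handling of multiply mapped reads was not given, so these 0 counts do not show that the genes were silent. The embryonic Hba-x, Hbb-bh1 and Hbb-y were detected in all 12 libraries, and the share of hemoglobin rests on them alone. Hbb-y was at 5.51, 5153 and 1522 CPM in pro-HSC/HPC and 11.9, 5.14 and 814 CPM in pre-HSC I, and at 9.92, 2.01 and 1.27 CPM in E9.5 HE and 2.66, 8.01 and 7.72 CPM in E10.5 HE. The low libraries of the blood populations thus lay in or near the range of HE. The median difference of the 3 genes was -3.48 with all libraries and 2.17 without the 3 rich ones. For 16 erythroid markers other than hemoglobin it was -0.97 and 0.155, and for 16 megakaryocyte and platelet markers -0.823 and 0.563. Each list thus changed sign. The mean log2(CPM + 1) of the platelet list was 2.61, 4.56 and 4.70 in pro-HSC/HPC. It was 3.87, 3.99 and 4.31 in pre-HSC I, where the hemoglobin-poor libraries lay closer to the rich one. Hbb-y itself was called in both steps (edgeR adjusted p = 0.0499 and 0.0248), neither with the replicate block (0.162 and 0.155).

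Car2, carbonic anhydrase 2, is on the erythroid list and was 1 of the 2 genes called without the libraries rich in hemoglobin. It was at 19.7, 85.2 and 36.6 CPM in E9.5 HE, 26.96, 215 and 83.1 CPM in pro-HSC/HPC, 6.27, 11.99 and 7.46 CPM in E10.5 HE and 275, 174 and 109 CPM in pre-HSC I, so its lowest group was E10.5 HE and its E9.5 groups overlapped. The difference was 3.25 ± 0.75 (edgeR adjusted p = 0.0736, and 0.00253 with the replicate block), and without the libraries rich in hemoglobin it was 5.53 (edgeR adjusted p = 0.0105). Pf4, platelet factor 4, was at 8.80, 215 and 538 CPM in pro-HSC/HPC and 36.2, 18.95 and 26.8 CPM in pre-HSC I, so the hemoglobin-poor pro-HSC/HPC library was also the low one. The difference of -6.06 ± 1.46 was not called (edgeR adjusted p = 0.0832, and 0.0883 with the replicate block). Itga2b, the integrin subunit CD41, was at 6.95, 5.81 and 11.7 CPM in E9.5 HE, 10.22, 11.1 and 25.96 CPM in pro-HSC/HPC, 3.57, 3.29 and 4.74 CPM in E10.5 HE and 13.03, 39.4 and 33.8 CPM in pre-HSC I. It rose at E10.5 (edgeR adjusted p = 0.00021) and was not called at E9.5 (0.64).

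Of 17 granulocyte and macrophage markers tested 10 rose at E10.5 and 5 at E9.5, against 3.08% and 0.505% of all genes. The list means of log2(CPM + 1) were 0.96 in E9.5 HE, 2.05 in pro-HSC/HPC, 0.89 in E10.5 HE and then 2.82 in pre-HSC I. The macrophage genes C1qa and C1qb were at 0 counts in all 12 libraries. Of 19 markers, 7 rose at E10.5 and 1 at E9.5 without the libraries rich in hemoglobin, and the median difference between the steps moved from 0.404 to 1.78. Lyz2, a lysozyme gene with a close copy, was at 7.003, 16.5 and 9.43 CPM in pro-HSC/HPC and 38.4, 19.3 and 28.1 CPM in pre-HSC I. In the lists of cardiac, neural, mesonephros, endoderm and germ cell markers 0 to 2 genes per list were called in the E10.5 step by edgeR. At E9.5 and in the difference of differences edgeR and DESeq2 called 0 in each list, with 0 or 1 per list at an unadjusted p under 0.05 and 0 or 1 by limma voom.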

How the data were processed

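PolyA RNA from lysates of 100 sorted cells was amplified with a SMARTer kit, as the labels' protocols state. The authors deposited raw counts per gene, made with TopHat, SAMtools and featureCounts 1.6.2 (Subread) on mm9, per the submitters' processing notes; the strand setting, annotation release and handling of multiply mapped reads were not given in the sources used here. From these counts edgeR 4.0.16 (R 4.3.3) fitted its quasi-likelihood model to all 28 libraries, with 1 coefficient for each of 9 populations, TMM scaling and 15238 of 24015 genes kept by its filter at a minimum count of 10. Contrasts gave each step and the difference of differences, with Benjamini-Hochberg adjustment over all genes tested and a threshold of 0.05. Standard errors are the log2 value divided by the square root of F. The script was tested on simulated data, with differences of differences set in genes of at least 10 CPM. The fit without a block recovered 2.99% of the 2-fold, 58.2% of the 4-fold and 87.9% of the 8-fold differences. Simulated libraries were drawn independently, with a spread set by level alone and no shared effect of replicate number. These shares therefore need not hold for the real libraries.

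Same-numbered libraries of a day deviated together from their group means over 8329 genes. The correlations were 0.235, 0.571 and 0.441 at E9.5 and 0.433, 0.288 and 0.173 at E10.5. Pairs of unlike number ran from -0.494 to 0.0884 at E9.5 and from -0.377 to 0.231 at E10.5. Across days, pro-HSC/HPC replicate 2 and pre-HSC I replicate 1 reached 0.493, so values of this size also occurred outside the pairing. The pairing comes from the data, since the labels give only the number, so the replicate number within day was used as a block beside the fit without it. Alternatives were DESeq2 1.42.0, limma 3.58.1 voom with quality weights, other scalings and filters, and libraries left out; leaving out replicate 1 of both E10.5 populations, and the block together with leaving out libraries rich in hemoglobin (over 0.1% of counts), were chosen after seeing the data.

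Members, gene lists and tests were chosen with earlier results of these data known. Named genes were the called genes reaching 10 CPM in a population, up to 10 per direction and filled with the smallest p, without unnamed models; a panel of 31 genes; and up to 4 members per list with the smallest p. Other genes were named as called members of a list, after their values were seen. Sequences come from RefSeq (GRCm38.p6). P-values cover counting error and the spread between these libraries. Libraries of the other 5 populations entered the fit, and their levels are given in the closing section. Some members of the gene lists are not reported here by name.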

Additional observations from a re-analysis of the deposited data

Results flagged for a closer look

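For 11 genes the effect of the same contrast, blood population minus HE, differed between the 2 days by edgeR's test of the difference itself (Benjamini-Hochberg adjusted p under 0.05). More positive at E10.5 were Ptpn7 (5.38 on the log2 scale), Samsn1 (3.52), Slc7a5 (3.13), Hk2 (2.54) and Gmfg (2.02). More negative at E10.5 were Serpina3g (-7.93, a fitted value that depends on the prior count), St6galnac3 (-1.81), C430049B03Rik (-1.66), Cald1 (-1.61), Mapk3 (-1.60) and Anxa6 (-1.50). Groups of 3 libraries are too small for the check on single libraries that stand apart from their group.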

How the results depend on the processing

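The sign of the difference of differences was kept by all 11 called genes under all 25 alternatives, and no called value changed sign. The number of genes called moved more. In the difference of differences, 11 genes became 175 with DESeq2, 511 with limma voom, 30 with no filter, 47 with a stricter filter and 81 with only the 12 libraries. They became 527 with the replicate block within day, 34 with a replicate block shared over days, 2 without the libraries rich in hemoglobin, 18 with both that and the within-day block, and 82 without replicate 1 of both E10.5 populations. With 1 library left out at a time they ranged from 3 (E9.5 HE replicate 2 and 3 others) to 61 (pre-HSC I replicate 1), with 41 without E10.5 HE replicate 1. The 1049 genes of the E10.5 step became 2180 with limma voom, 2327 with the within-day block and 656 without the libraries rich in hemoglobin, and ranged from 512 (without pre-HSC I replicate 2) to 1091 with 1 library left out, with 653 and 622 without E10.5 HE replicates 2 and 3. The 100 genes of the E9.5 step became 218 with DESeq2, 398 with limma voom, 155 with no filter, 175 with only the 12 libraries and 218 with the within-day block. They became 20 without the libraries rich in hemoglobin and 10 with the block as well, and ranged from 50 (without E9.5 HE replicate 3) to 98 with 1 library left out, with 51 and 54 without E9.5 HE replicates 1 and 2 and 66 without pro-HSC/HPC replicate 2. The cause of these moves was not tested. With the replicate block shared over days the E10.5 step held 1181 and the E9.5 step 104 genes. Samples of the same number in different days did not deviate together in every pair (correlations from -0.253 to 0.436). DESeq2 size factors and upper-quartile factors gave 8 genes each in the difference of differences. Both left out Cald1, Mapk3 and C430049B03Rik, and they moved the median of all genes from -0.042 to -0.0365 and 0.00623. Of the alternative values for single named genes, 3581 kept their direction and side of the threshold, 240 passed it and 95 no longer passed it. The sign changed in 47, none of them called in either fit. With 3 libraries a group the median standard error of the difference of differences was 0.672 on the log2 scale, against 0.477 and 0.474 for the E10.5 and E9.5 steps.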

Other observations

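Levels in the 5 populations outside the 2 steps are given as values without a test, since the genes were chosen for their pattern in the 4 populations of the steps. E10.5 HE had the lowest mean of all 9 populations for each of the 5 genes with a more positive step at E10.5, Ptpn7, Samsn1, Slc7a5, Hk2 and Gmfg. It was also the lowest for Ncl and Car2. The endothelial cells of the same day, E10.5 EC, had higher means, with Ptpn7 at 10.4 ± 7.05 CPM, Samsn1 at 68.7 ± 11.7 CPM, Hk2 at 52.0 ± 6.25 CPM, Gmfg at 59.6 ± 20.8 CPM and Slc7a5 at 8.58 ± 2.72 CPM (mean ± SD, n = 3). The means of E10.5 HE were 0.988, 11.2, 34.6, 25.9 and 3.95 CPM. For Hk2 and Slc7a5 the libraries overlapped, with the lowest E10.5 EC at 44.8 and 5.54 CPM and the highest E10.5 HE at 45.8 and 5.98 CPM.

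The later blood population of the same day, pre-HSC II, extended the order of most called genes. Ptpn7 stood at 63.8 ± 10.7 CPM there, Samsn1 at 233 ± 48.2 CPM and Gmfg at 167 ± 42.0 CPM (n = 3), each the highest mean of the 9 populations, and Hk2 at 263 ± 23.8 CPM was above pre-HSC I. Cald1 at 11.9 ± 1.29 CPM and Anxa6 at 40.0 ± 5.32 CPM had their lowest means there, as did St6galnac3, Mapk3 and C430049B03Rik. Serpina3g was at 0 counts in every library of E8.5 EC, E8.5 HE and E9.5 HE and reached its highest mean in pre-HSC II, at 86.0 ± 18.2 CPM. Gja4 had a mean of 1639 CPM in E10.5 HE and means of 13.8 to 464 CPM in the other 8 populations.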
